A study of Mus musculus and Homo sapiens with 20 samples.

Results

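Broad domains of H2AK119ub, a monoubiquitylated form of histone H2A, were defined in K562 cells as autosomal intervals covered by a called peak in both siControl libraries. Gaps of up to 1 kb were joined and intervals of 5 kb or wider were kept. This gave 4327 domains, which were 8.1% of the 53389 joined intervals covered in both siControl libraries and held 41.9% of their 100.5 Mb. The domains summed to 42.08 Mb, or 1.53% of the 2756 Mb of known autosomal sequence. The domains were thus chosen by the siControl peak positions, and their siControl positions and widths are given as a description, without a test.

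K562 is an established human leukaemia line that carries the BCR-ABL1 fusion and has erythroid and megakaryocytic features. The cells were nucleofected with control siRNA or with siRNA against MBD6, the latter labelled as MBD6 knockdown, with 2 libraries in each group. CUT&Tag, in which an antibody directs a transposase to the marked nucleosomes, was run with an antibody to H2AK119ub, and the values used here are the positions of the called peaks. The labels do not give the TET2 genotype of these cells. The study's own sample list names MBD6 siRNA libraries of K562 on a TET2 knockout background, and control siRNA libraries on wild-type and on knockout backgrounds. Which background each group used here had, and whether both had the same, was not settled, so a TET2 difference between the groups cannot be told apart from the siRNA. The knockdown level is not measured in these files. The methods speak of biological replicates, but the labels of these libraries do not say that they came from separate cultures, so p-values measure only the spread between libraries, which may be technical.

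H2AK119ub is placed by Polycomb repressive complex 1 and removed by the Polycomb repressive deubiquitylase (PR-DUB), whose catalytic subunit is BAP1. MBD6, a methyl-CpG-binding-domain family protein, is a partner of PR-DUB. The mark is known for sharp enrichment at CpG-rich starts of silent developmental genes and for a broad, lower level over the rest of the genome.

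The domains were rich in G, C and CpG. Their GC content was 57.4%, with 23.8 CpG per kb, whereas all autosomes had 41.0% and 10.1 CpG per kb. All 4327 domains lay above the autosomal GC content, and 4268 (98.6%) lay above the autosomal CpG density. Joined intervals under 5 kb were close to them at 55.8% GC and 21.4 CpG per kb. The 5-kb flanks had 51.5% GC, and flank bases covered in no library had 47.1%. Bases of the flanks that were covered in both siMBD6 libraries and in neither siControl library (2.39 Mb) had 52.3% GC and 19.8 CpG per kb. The 2252 domains that were wider in both siMBD6 libraries had a median GC content of 56.8%, and the other 2075 had 57.2%, so GC content was nearly the same in both.

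Sequences of 3 domains that were wider in siMBD6 are shown for the inside of a domain and for sequence newly covered in siMBD6. HOXA6 is a homeobox gene, CSF1R encodes the receptor for macrophage colony-stimulating factor, and TCF7 encodes a T cell transcription factor. For each locus, the first line is the 200-base window with the most CpG among domain bases covered in all 4 libraries, and the second is that window among bases covered in both siMBD6 libraries and in neither siControl library. Windows with an annotated exon were left out. The sequences are hg38, 5′ to 3′, with each CpG in capitals.
HOXA6 domain, chr7:27144813-27145012, plus strand: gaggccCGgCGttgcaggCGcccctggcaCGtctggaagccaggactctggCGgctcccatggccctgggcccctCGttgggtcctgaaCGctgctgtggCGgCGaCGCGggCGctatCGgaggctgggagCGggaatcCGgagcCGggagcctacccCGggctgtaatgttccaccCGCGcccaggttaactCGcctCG
HOXA6 newly covered, chr7:27151903-27152102, plus strand: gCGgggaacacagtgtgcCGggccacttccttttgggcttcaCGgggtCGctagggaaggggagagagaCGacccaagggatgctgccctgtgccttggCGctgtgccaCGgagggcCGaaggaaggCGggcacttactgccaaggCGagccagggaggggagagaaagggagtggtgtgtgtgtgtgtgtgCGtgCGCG
CSF1R domain, chr5:150113430-150113629, plus strand: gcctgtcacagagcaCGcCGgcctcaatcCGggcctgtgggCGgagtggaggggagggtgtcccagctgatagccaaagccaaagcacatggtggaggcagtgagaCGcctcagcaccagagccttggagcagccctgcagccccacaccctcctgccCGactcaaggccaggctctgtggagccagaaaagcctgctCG
CSF1R newly covered, chr5:150112425-150112624, plus strand: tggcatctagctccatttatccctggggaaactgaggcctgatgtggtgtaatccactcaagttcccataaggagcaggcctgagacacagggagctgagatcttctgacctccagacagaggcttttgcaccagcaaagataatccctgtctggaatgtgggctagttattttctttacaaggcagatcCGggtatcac
TCF7 domain, chr5:134113846-134114045, plus strand: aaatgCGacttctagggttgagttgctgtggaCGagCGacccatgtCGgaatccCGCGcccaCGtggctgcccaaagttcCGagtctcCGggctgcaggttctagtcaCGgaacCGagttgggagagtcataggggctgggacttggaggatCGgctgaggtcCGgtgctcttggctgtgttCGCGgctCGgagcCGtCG
TCF7 newly covered, chr5:134119210-134119409, plus strand: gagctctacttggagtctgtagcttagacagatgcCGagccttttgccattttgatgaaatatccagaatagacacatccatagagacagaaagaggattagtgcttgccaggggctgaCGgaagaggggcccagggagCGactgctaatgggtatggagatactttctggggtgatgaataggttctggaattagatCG
The HOXA6 windows held 21 CpG inside the domain and 13 in the newly covered bases. The counts were 7 and 1 at CSF1R, and 18 and 4 at TCF7. Windows were searched over more bases inside a domain than in the newly covered part, so these maxima are not compared. Newly covered bases summed to 1889 bp at HOXA6, 519 bp at CSF1R and 1105 bp at TCF7.

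Most of the domains lay away from gene starts. A protein-coding gene start was inside 718 of the 4327 domains (16.6%), and these held 839 starts, 4.39% of the 19111 autosomal protein-coding genes. A further 2087 domains (48.2%) lay wholly inside protein-coding gene bodies without a start, and 1078 (24.9%) overlapped no protein-coding gene. Gene bodies held 68.3% of the bases of the domains, against 45.3% of the autosomes and 58.0% of the joined intervals under 5 kb. Exons held 13.6% of domain bases, 11.1% of the bases of the shorter intervals and 3.8% of the autosomes. Among 1980 domains inside the body of a single gene, the first of 5 equal parts of the gene held 13.2% and the other parts held 18.9% to 23.8%. Domains that span a start were not among these, which lowers the share of the first part.

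Long genes carried many separate domains. GSE1, which encodes a coiled-coil protein of a histone deacetylase complex, had 227560 bp in 21 domains, or 44.9% of its length. PRDM16, a zinc finger regulator of stem cells and brown fat, had 24 domains, the most of any gene, over 55.3% of its length. RXRA, the retinoid X receptor alpha, was 93.9% inside 4 domains, and MEGF6, an EGF-repeat gene, was 92.9% inside 3. Peaks covered 63.8% and 62.9% of GSE1 in the siControl libraries and 69.6% and 72.6% in the siMBD6 libraries. At GLI2, a transcription factor of the Hedgehog pathway with 14 domains, the cover was 60.7% and 61.5% in siControl and 74.5% and 76.6% in siMBD6. The cover of RXRA was 92.5% and 91.1% in siControl and 92.5% and 94.4% in siMBD6, so the 2 groups touched at a gene that was already almost filled.

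Among gene lists, starts of WNT ligands were most often inside a domain, with 5 of 19 (26.3%). Only 2 of the 19 starts (10.5%) were themselves under a peak in both siControl libraries, beside 12.4% of all genes. By that measure myeloid genes had the highest share, 6 of 18 (33.3%). Lymphoid genes had 4 of 23 starts inside, myeloid genes 3 of 18 and collagens 6 of 40. Developmental transcription factors had 11 of 143 (7.69%) and HOX genes 2 of 39 (5.13%), beside 4.39% of all genes. Erythroid and megakaryocytic genes, the lineage K562 resembles, had 1 of 32, which was SLC4A1, the red cell anion exchanger. FGF, BMP and GDF ligands had 2 of 40, voltage-gated potassium channels 2 of 39, clustered protocadherins 1 of 53, and ZNF genes of chromosome 19 had 1 of 249. No start was inside a domain among 19 PRC1, 10 PRC2, 9 PR-DUB and MBD5/6, 10 widely expressed, 21 cytokine feedback and 7 CDK inhibitor genes. Although only 1 protocadherin start was inside a domain, 22 of the 53 genes were overlapped by one.

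**Figure D1:**
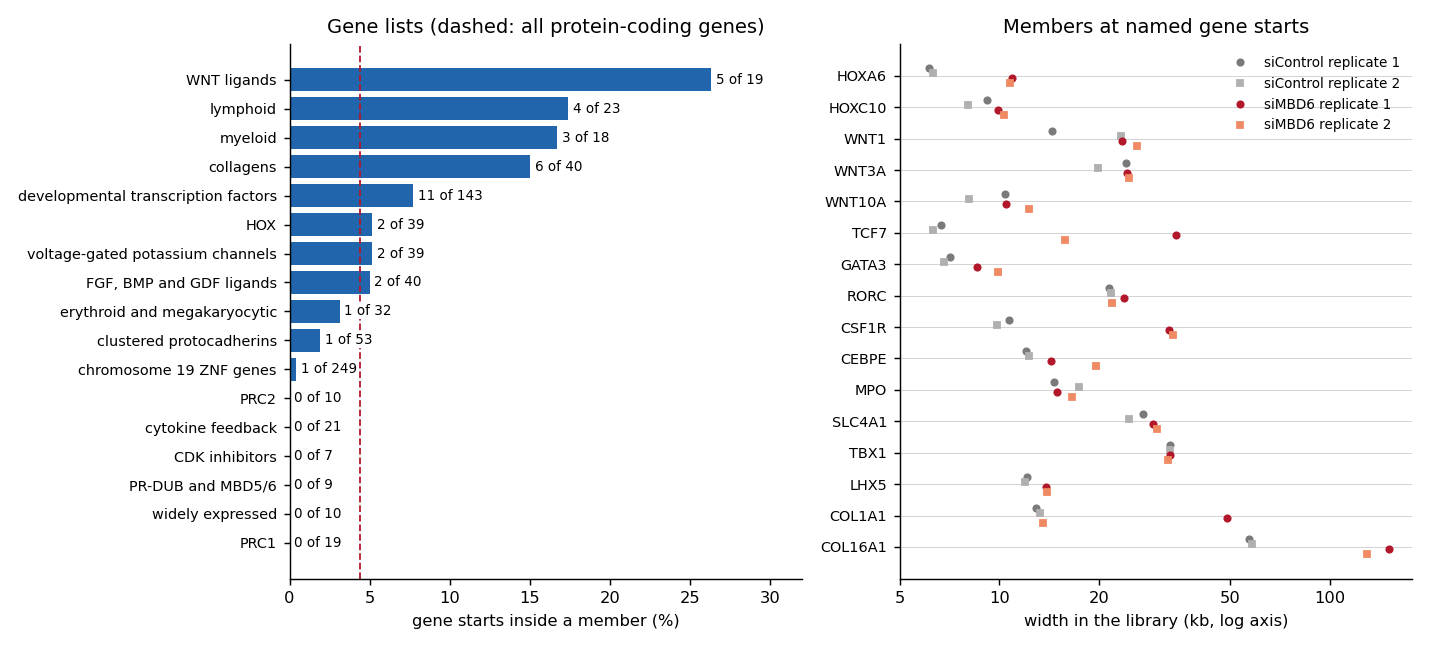
Left, the share of protein-coding gene starts inside a domain for each gene list, with counts beside the bars and the share over all autosomal protein-coding genes (4.39%) as a dashed line. Right, the width of the joined intervals that meet the domain at each named gene start, 1 point per library on a log axis in kb; at CSF1R both siMBD6 points lie above 32 kb, where the interval also holds a neighbouring domain, and both siControl points below 11 kb, while at TBX1 the 4 points coincide.

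Cover near the starts inside the domains dipped slightly just downstream of the start. The start itself was under a peak for 84.5% and 85.1% of the 839 starts in the siControl libraries and for 86.9% and 85.2% in the siMBD6 libraries. In 51 cases (6.08%) it was under a peak in none of the 4 libraries, which means that it lay in a joined gap. In bins of 200 bp, cover was 87.8% and 87.2% in siControl and 90.4% and 91.2% in siMBD6 at 300 bp upstream of the start. At 300 bp downstream it was 81.2% and 81.6% in siControl and 85.1% and 82.5% in siMBD6, a shallow dip in every library. At 2900 bp upstream the values were 64.2% and 64.3% in siControl and 72.0% and 74.6% in siMBD6. The rule fixes high siControl cover at these starts, whereas sequence farther away often lies outside the domain, so the groups are not compared across distances.

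**Figure D2:**
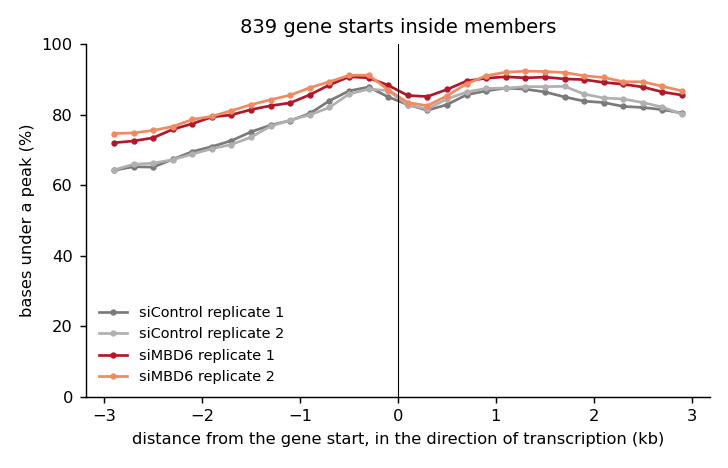
Share of bases under a peak (y axis, %) by distance from the 839 protein-coding gene starts inside domains (x axis, kb, in the direction of transcription), 1 line per library. The 4 lines lie between 81.2% and 85.1% near 300 bp downstream of the start, and cover falls with distance upstream in all libraries.

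Genes with starts in the domains were also marked in the wild-type mouse cells of the series. A single mouse gene of the same symbol was found for 703 of the 839 genes (83.8%). Of these, 678 (96.4%) had an H2AK119ub peak within 1 kb of the start in both wild-type mouse embryonic stem (mES) cell libraries, and 629 (89.5%) in both libraries of haematopoietic stem and progenitor cells (HSPCs). Over all 15138 matched genes the shares were 77.7% and 76.2%. H3K27me3, the mark of Polycomb repressive complex 2, was at 556 (79.1%) of the 703 in mES cells and 542 (77.1%) in HSPCs, beside 53.7% and 67.5% of all matched genes. Human genes whose start lay in a joined interval under 5 kb gave 92.3% for H2AK119ub and 67.3% for H3K27me3 in mES cells. In HSPCs they gave 87.0% and 73.8%. These values lay between those of the other 2 sets, and in HSPCs they were nearer to those of the domain genes.

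The domains were concentrated on gene-dense chromosomes. Chromosome 22 had 5.16 domains per Mb, the most, and 7.03% of its known bases were inside them. Chromosomes 18 and 13 had the fewest, 0.15 and 0.184 per Mb. Chromosome 19, the most gene-dense at 25.3 protein-coding genes per Mb, had 3.71 domains per Mb, beside 11.4 genes per Mb on chromosome 22. The rank correlation of domains per Mb with protein-coding genes per Mb was 0.85 over 22 chromosomes, which share the same libraries and differ in base composition. Of 2887 windows of 1 Mb, 2202 had no domain and 45 had 20% or more of their length inside domains. The window from 20 to 21 Mb of chromosome 22 (start 20000001, end 21000000) had the highest share, 49.2%, and 3 of the 10 richest windows were on that chromosome. The part of DNA copy number in these densities was not tested.

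The widest domain, 246080 bp at chr9:130880052-131126131 (hg38), began in ABL1 and held the starts of QRFP, FIBCD1, LAMC3, AIF1L and NUP214. It measured 246080 and 246367 bp in the siControl libraries and 277656 and 246624 bp in the siMBD6 libraries. The next, 159256 bp at chr22:20164811-20324066, held the starts of RTN4R, a Nogo receptor, and DGCR6L. Its widths were 159547 and 159589 bp in siControl and 159852 and 160096 bp in siMBD6. A 61228-bp domain inside BCR, the gene joined to ABL1 in this line, measured 61228, 61333, 61276 and 61241 bp in the 4 libraries. These 3 domains had nearly the same widths in all libraries, except that the first was met in siMBD6 replicate 1 by more than 1 interval, of which none was wider than 186707 bp. Others of the 10 widest varied more between libraries: the domain in MEGF6 measured 68429 and 110321 bp in siControl and 104459 and 97315 bp in siMBD6. The part of DNA copy number in the width of domains at BCR and ABL1 was not tested.

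**Figure D3:**
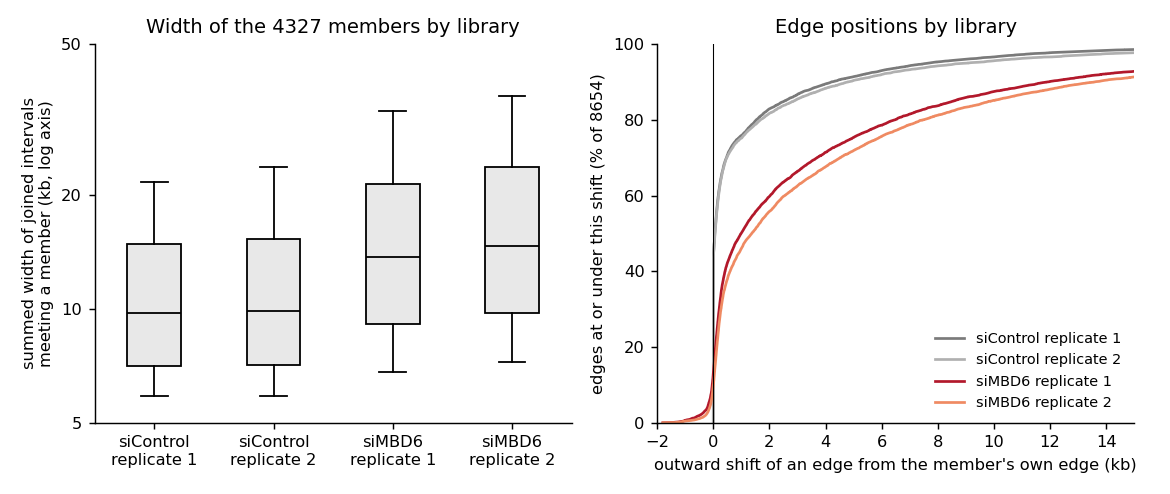
Left, the width of the 4327 domains in each library (kb, log axis; line, median; box, quartiles; whiskers, 10th and 90th percentiles). Right, the cumulative share of the 8654 domain edges by their outward shift in kb from the domain's own edge; median widths were 9745 and 9882 bp in siControl and 13693 and 14658 bp in siMBD6.

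More and longer broad intervals were present in the siMBD6 libraries. By the same joining and minimum width in each library alone, there were 6445 and 6340 broad intervals in siControl and 9182 and 9950 in siMBD6, so the groups did not overlap. The mean was 6392 ± 74.2 (SD, n = 2) in siControl and 9566 ± 543.0 (SD, n = 2) in siMBD6, a difference of 49.6% (two-sided exact permutation test, p = 0.333). With the lists limited in file order to 130.8 Mb of cover each, an alternative chosen after seeing the data, the difference was 21%. Their summed length was 64.42 and 64.1 Mb in siControl and 98.89 and 109.4 Mb in siMBD6, 62.1% more (exact permutation p = 0.333, two-sided) and 32.3% more at equal cover. With 2 libraries against 2, 0.333 is the smallest p that the 6 assignments allow. Both siMBD6 lists were also longer as a whole, with 175.6 and 188.0 Mb of autosomal cover against 130.9 and 130.8 Mb.

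Width in a library was the summed length of the joined intervals that met a domain. Its median over the domains was 9745 and 9882 bp in siControl and 13693 and 14658 bp in siMBD6, 44.4% higher for the mean of the medians. At equal cover the siMBD6 medians were 12510 and 13287 bp, and the difference was 31.4%. No domain was without a peak in any library. Both siMBD6 widths exceeded both siControl widths at 2252 domains (52.0%), beside 45.9% of all 53389 joined intervals. Both were below at 116 domains (2.68%), beside 5.48% of all intervals, and at 1959 domains the groups overlapped. The domains were thus close to the background of all intervals, with somewhat more wider calls. The wider share was 41.8% of intervals under 1 kb and 50.2% to 52.6% in the classes from 1 to 5 kb. An interval lost in both siMBD6 libraries has no width left and counts as narrower. This held for 1451 intervals under 1 kb, 6 of 1 to 2 kb and no domain, so the narrower shares are not compared. At equal cover, 1718 domains (39.7%) were wider and 283 (6.54%) narrower, and all joined intervals gave 26.0% and 29.9%. The cut to equal cover fell almost only on the siMBD6 lists, and what their file order ranks is not known. An interval that lost all its siMBD6 peaks to the cut counts as narrower. The equal-cover shares therefore do not compare domains with all intervals.

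Domain edges lay farther out in siMBD6. The median outward shift of the 8654 edges was 54 and 61 bp in siControl and 995 and 1369 bp in siMBD6, and left and right edges gave similar values. The rule places each domain edge within both siControl intervals, so a siControl shift cannot be negative. Shifts against a control library that took no part in the choice were smaller and are given below. At equal cover the siMBD6 medians were 527 and 676 bp. Both siMBD6 ends lay beyond both siControl ends at 3720 edges (43.0%), beside 36.5% of the edges of all joined intervals. They lay inside at 426 edges (4.92%), beside 8.91%. Edges of short intervals lost in both siMBD6 libraries count as inside, and no domain was lost, so these inside shares are not compared. The gap between the nearest siMBD6 and siControl ends had a median of 433 bp where the edge was beyond and 74 bp where it was inside. Both edges were beyond at 812 domains, 1 edge at 2096 and no edge at 1419. The matching counts over all joined intervals were not made. Of left edges 41.4% were beyond, and of right edges 44.6%. Whether the edges of a domain moved together or separately was not tested. At the 621 domains with a single gene start, 276 upstream and 273 downstream edges were beyond, so neither side was favoured.

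Most siMBD6 length outside the domains was sequence that siControl peaks already touched. There, the siMBD6 intervals that met the domains held 16.46 and 18.88 Mb, and the siControl intervals held 6.456 and 6.651 Mb. Of the siMBD6 length, 70.7% and 69.9% lay under a peak of at least 1 siControl library. A further 19.2% and 20.3% (3.154 and 3.826 Mb) was under a siMBD6 peak only, and 10.1% and 9.86% was joined gap. These shares are of all siMBD6 length outside the domains, not of its excess over siControl. In the 5-kb flanks, peaks covered 33.9% and 34.0% in siControl and 48.9% and 51.9% in siMBD6. Inside the domains, cover was 93.06% and 93.15% in siControl, which the rule fixed, and 95.38% and 96.42% in siMBD6. Neighbouring domains were joined more often, with 427 and 500 domains sharing an interval with another in siControl and 717 and 850 in siMBD6. At the same time 264 and 158 domains were split into 2 or more intervals in siMBD6.

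Relative widening fell with domain width while widening in bp grew. Domains of 5 to 7 kb had a median of 6809 and 6805 bp in siControl and 9848 and 10905 bp in siMBD6, 52.4% more. Those of 20 kb or wider had 28612 and 28963 bp in siControl and 34711 and 35555 bp in siMBD6, 22% more. Intervals of 1 to 2 kb gave 95.2%. The share of intervals wider in both siMBD6 libraries was 50.8% to 53.4% in the 4 width classes of the domains and 41.8% below 1 kb. Loss in both siMBD6 libraries was seen at 1451 intervals under 1 kb (4.75%) and at no domain.

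**Figure D4:**
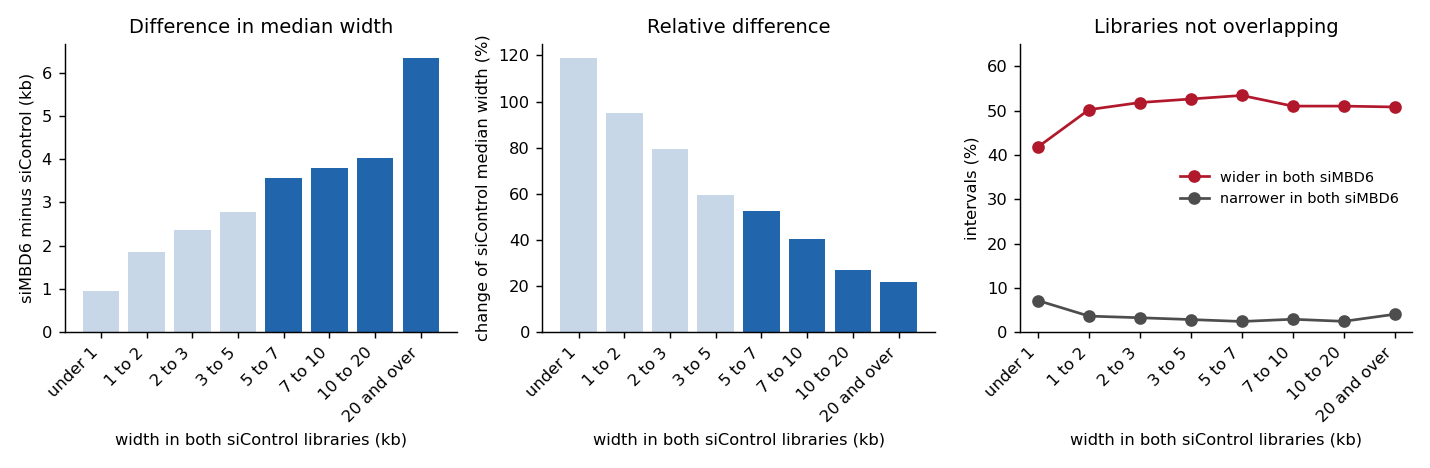
Joined intervals by their width in both siControl libraries (x axis, kb; light bars under 5 kb, dark bars the domains): the difference in median width between groups (left, kb), the same in % of the siControl median (middle), and the share wider or narrower in both siMBD6 libraries (right). The difference grows from 949 bp to 6345 bp while the relative difference falls at each step.

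To measure widths where the siControl value had not chosen the domain, intervals of 5 kb or wider were taken from 1 siControl library and measured in the other 3 libraries. The 6445 intervals from siControl replicate 1 had a median of 8551 bp in siControl replicate 2 and 11392 and 12162 bp in the siMBD6 libraries. The median log2 ratio of siMBD6 to the held-out siControl width was 0.26 and 0.35, with 78.7% and 84.7% of intervals wider. The 6340 intervals from siControl replicate 2 gave 0.25 and 0.35, with 79.1% and 84.1% wider. For the intervals from siControl replicate 1, the median outward edge shift was 54 bp in siControl replicate 2 and 304 and 457 bp in siMBD6. For those from siControl replicate 2, it was 52 bp in siControl replicate 1 and 300 and 438 bp in siMBD6. Widening was therefore also present against a control library that took no part in the choice.

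The held-out profile showed the same order at every distance. In the 500 bp just inside the edge, cover was 69.0% in the held-out siControl library and 84.1% and 87.5% in siMBD6. Just outside it was 30.3%, and 44.2% and 48.2%. From 500 to 1000 bp outside, where the joining rule requires a gap in the choosing library, it was 19.7%, and 29.7% and 33.2%. Near 5 kb outside it was 43.6%, and 52.9% and 55.5%. The excess in siMBD6 was thus not limited to the edge and continued through the surrounding 10 kb.

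**Figure D5:**
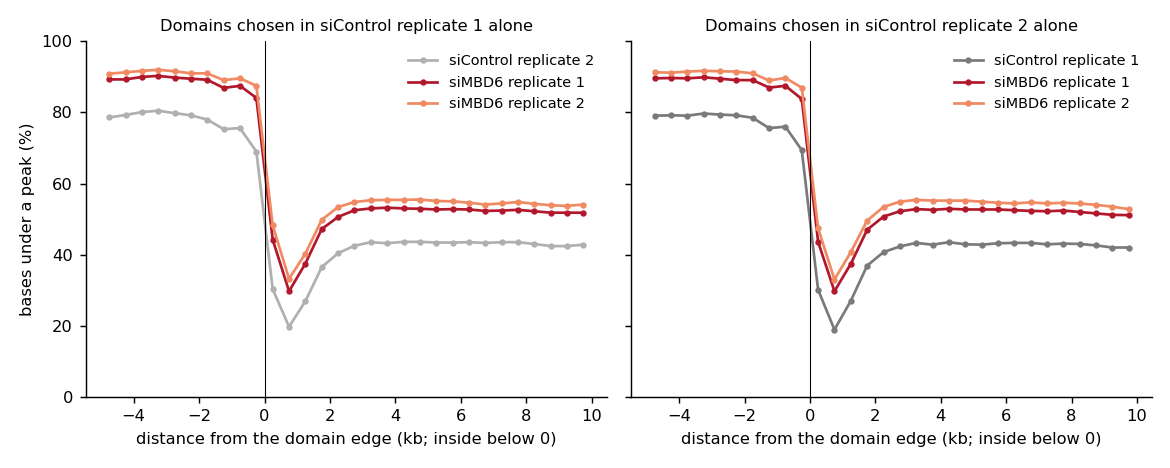
Share of bases under a peak (y axis, %) by distance from the edge of domains chosen in 1 siControl library alone (x axis, kb, inside below 0), for the 3 libraries that did not choose them. Both siMBD6 lines lie above the held-out siControl line in every bin, and the dip just outside the edge falls where the rule requires a gap.

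The same rule applied to both siMBD6 libraries gave 7472 domains of 77.75 Mb, with a median width of 8027 bp against 7556 bp. Of the siControl domains, 4175 (96.5%) overlapped a siMBD6 domain. Of the siMBD6 domains, 3860 (51.7%) overlapped a siControl domain and 3612 did not. Among the 3612, 3601 overlapped a joined siControl interval under 5 kb, and 11 held no base covered in both siControl libraries. Nearly all additional siMBD6 domains thus met shorter siControl intervals. Any shared base counted as an overlap, so whether they were extensions of these intervals was not tested.

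Widening was of similar frequency at gene starts and elsewhere. Domains with a start were wider in both siMBD6 libraries in 359 of 718 cases (50.0%), those inside a gene body without a start in 1105 of 2087 (52.9%) and those without a protein-coding gene in 571 of 1078 (53.0%). Chromosome 22, which had the densest domains, had the lowest share wider, 37.6% of 202, and chromosome 3 the highest, 59.0% of 178.

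The largest width differences arose where neighbouring domains became 1 interval. Each domain is given the width of the whole interval it falls in. Among the 10 largest increases, the 2 siControl widths differed by 1.5 times or more in 5, beside 1314 of all 4327 domains (30.4%). At NFASC and CNTN2, which encode axonal cell adhesion proteins, 5 domains between 204971756 and 205077878 of chromosome 1 fell in 1 interval of 135107 bp in siMBD6 replicate 1 and of 115479 bp in siMBD6 replicate 2. The domain at the CNTN2 start measured 25988 and 34403 bp in siControl. At the start of COL16A1, a fibril-associated collagen, widths were 57147 and 58319 bp in siControl and 151540 and 129695 bp in siMBD6, and the same siMBD6 intervals held the start of ADGRB2, an adhesion G-protein-coupled receptor. A 5961-bp domain in CAMK2B, a calcium/calmodulin-dependent kinase subunit, measured 11275 and 8638 bp in siControl and 78960 and 81555 bp in siMBD6.

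The largest decreases rested mostly on 1 wide siControl library. In TTYH3, a chloride channel gene, the domain measured 9039 and 37751 bp in siControl and 8979 and 9025 bp in siMBD6. In GLI2 it measured 34269 and 8972 bp in siControl and 8723 and 8955 bp in siMBD6. Among the 10 largest decreases, the 2 siControl widths differed by 1.5 times or more in 9. WNT7B, a WNT ligand, measured 34566 and 22393 bp in siControl and 21278 and 21470 bp in siMBD6, with both siMBD6 ends inside on the left.

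At developmental genes, both HOX domains were wider in siMBD6. The HOXA6 domain, chr7:27144812-27150938, measured 6127 and 6319 bp in siControl and 10917 and 10820 bp in siMBD6, and nearly all of the difference was on the right side (4702 and 4632 bp outward). The domain at HOXC10 measured 9173 and 8072 bp in siControl and 9940 and 10333 bp in siMBD6. HOX clusters were covered in short pieces. For HOXA, cover was 30.1% and 34.8% in siControl and 48.5% and 53.9% in siMBD6. For HOXD it was 35.4% and 44.2% in siControl and 52.2% and 58.1% in siMBD6. HOXB and HOXC rose by fewer points. HOXB had 14.3% and 15.9% in siControl and 20.7% and 22.5% in siMBD6. HOXC had at most 41.9% in siControl and 51.4% and 53.6% in siMBD6. Autosomal cover as a whole was also higher in siMBD6, and whether HOX clusters rose more than the autosomes was not tested. The widest HOXD interval was 4988 bp and thus was no domain. The 5 domains at WNT starts were called wider, 2 of 2 HOX domains likewise, and 7 of the 11 at developmental transcription factors, beside 52.0% of all domains and 45.9% of all joined intervals. FGF, BMP and GDF ligands had 0 of 2, voltage-gated potassium channels 0 of 2, clustered protocadherins 0 of 1 and collagens 3 of 6. Lymphoid genes had 3 of 4, myeloid genes 2 of 3, and the erythroid and chromosome 19 ZNF lists 1 of 1 each. These domains are too few to set a list apart. Several WNT widths nearly touched between groups. WNT10A measured 10447 and 8108 bp in siControl and 10454 and 12291 bp in siMBD6, and WNT3A measured 24250 and 19929 bp in siControl and 24327 and 24629 bp in siMBD6. WNT1 measured 14467 and 23362 bp in siControl and 23518 and 26193 bp in siMBD6, and the domain at WNT10B lay in the same interval as WNT1 in all libraries but siControl replicate 1, so these 2 calls are not separate. The domain at TBX1, a T-box factor, had 32841 and 32774 bp in siControl and 32881 and 32365 bp in siMBD6.

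At blood genes, the domain at CSF1R, chr5:150112775-150122656, measured 10715 and 9882 bp in siControl and 32532 and 33625 bp in siMBD6. In both siMBD6 libraries it lay in 1 interval with a neighbouring 19622-bp domain in PDGFRB, a platelet-derived growth factor receptor gene. That domain alone had measured 19764 and 39344 bp in siControl, so the CSF1R width in siMBD6 is mostly that of sequence already covered. TCF7 measured 6647 and 6288 bp in siControl and 34385 and 15826 bp in siMBD6, where the 2 siMBD6 libraries differed by more than 1.5 times and both joined it to a second domain of 14699 bp in the same gene. GATA3, a T cell and developmental factor, measured 7091 and 6789 bp in siControl and 8550 and 9912 bp in siMBD6. CEBPE, a granulocyte factor, measured 12020 and 12318 bp in siControl and 14307 and 19611 bp in siMBD6. MPO, myeloperoxidase, overlapped between groups, with 14617 and 17439 bp in siControl and 14974 and 16636 bp in siMBD6. SLC4A1 measured 27319 and 24670 bp in siControl and 29246 and 30043 bp in siMBD6. Among collagens, COL1A1 measured 12892 and 13262 bp in siControl and 49030 and 13612 bp in siMBD6, so its large width was in 1 library, where 2 other domains fell in the same interval.

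Of the genes the study names, MBD6, BAP1, NFKBIA (an inhibitor of NF-kappa-B) and NSUN2 (an RNA cytosine methyltransferase) met no domain. SOCS3, a feedback inhibitor of cytokine signalling, was partly inside a domain of 5632 bp at chr17:78353423-78359054, and its start lay outside. Peaks covered 69.0% and 79.1% of the gene in siControl and 69.8% and 78% in siMBD6. A second domain of 8218 bp began within 1 kb upstream of its start. The domain over the gene measured 5758 and 15680 bp in siControl and 7593 and 17584 bp in siMBD6, because siControl replicate 2 and siMBD6 replicate 2 joined the 2 domains, so the groups overlapped.

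At the 5-kb threshold, a 5000-bp interval on chromosome 21 measured 12477 and 9076 bp in siControl and 16708 and 45305 bp in siMBD6, and a 5004-bp interval on chromosome 2 measured 7874, 7822, 7980 and 7931 bp in the same order. Just below it, a 4999-bp interval on chromosome 11 measured 8302 and 5020 bp in siControl and 8501 and 34476 bp in siMBD6, and another on chromosome 12 measured 24416, 4999, 22157 and 19333 bp.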

How the data were processed

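CUT&Tag peak lists of 4 K562 libraries (siControl and siMBD6, 2 each) and of 8 wild-type mouse libraries were used. The other 8 of the 20 lists were not used here. Per the methods and the labels, reads were trimmed by the authors (Trimmomatic 0.39) and mapped to hg38 or mm10 together with a Drosophila spike-in genome (Bowtie2 2.4.1), and after duplicate removal MACS2 called broad peaks in each library. HOMER 4.9 is named without a role. The deposited lists hold start and end positions only, with no count, score or signal, so depth is unknown and no counting error could be given. The lists had 91721 to 110860 peaks, and 30.2% to 35.4% of peaks were 501 bp wide, the minimum. Libraries of a pair shared 14 to 28 identical peaks.

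Peaks were merged, intersected between the siControl libraries, joined over gaps up to 1 kb and kept at 5 kb with Python 3.11.15 and numpy 2.4.6. bedtools 2.31.1 gave the same 4327 intervals. On simulated lists with 200 of 3044 domains extended by 1500 bp per side, all 200 were called 1 kb wider or more, as were 55 others. Genes were from GENCODE 44 (human) and M21 (mouse), and sequence was from hg38.

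Named domains were the 10 widest, the 10 with the largest difference in each direction, all at HOX genes, up to 4 per other gene list, those at genes the study names and those beside the threshold. Of these, the text gives a selection made after the values were seen. The CSF1R, HOXA6 and TCF7 windows were picked likewise. The domains and gene lists were chosen with earlier results of these data known. Values per library were compared by exact permutation, with 6 ways to assign 4 libraries to groups. Alternatives were the gap, minimum width, peak filters, joining order, list length, chromosomes, single libraries and the replicate block.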

Additional observations from a re-analysis of the deposited data

How the results depend on the processing

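Wider and longer broad domains in siMBD6 kept their direction under each alternative run, for both library-level results and for width, edge shift and flank cover. Without joining beyond touching peaks, widths were 37.3% higher, 1331 of 2562 domains were wider, edges differed by 650.0 bp and flank cover by 14.9 percentage points. With gaps of 2 kb joined, the values were 55.1%, 3567 of 6614 and 1857 bp. A minimum width of 3 kb gave 55.5%, with 4612 wider and 245 narrower of 8813, and 10 kb gave 30.3%, with 661 and 36 of 1296. Peaks of at least 1 kb gave 19.2 points of flank cover, a 2-kb flank 22.4 and a 10-kb flank 14.3.

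With equal cover by file order, chosen after seeing the data, widths were 31.4% higher, 283 domains were narrower, edges differed by 545.0 bp, and flank cover differed by 10.1 points. Broad intervals per library were then 21% more and their summed length 32.3% more. Without chromosomes 9 and 22, also added later, widths were 45.6% higher. Domains chosen in siMBD6 were 27.4% wider in siMBD6, and those chosen in 1 siControl library 37.7% and 37.5%. Intervals chosen in siMBD6 replicate 1 or 2 alone had a median log2 ratio of the other siMBD6 library to siControl of 0.38 and 0.29. Leaving out 1 library at a time gave 300 to 477 narrower domains and 2705 to 3068 wider ones (narrower lowest without siMBD6 replicate 1 and highest without siControl replicate 1, wider lowest without siMBD6 replicate 2 and highest without siMBD6 replicate 1), because fewer libraries then had to be separated. The causes of the other movements were not tested. Except at equal cover, the share over all joined intervals was not computed for the alternatives, so their counts have no background beside them.

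Replicate numbers did not pair the libraries (correlation 0.018 over 4327 domains, with only 2 pairs). With the replicate block the differences were 49.6% and 62.1%, with an exact p of 0.5, the smallest that the sign changes allow. Without counts in the lists, the smallest difference that depth would allow is unknown.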
